A study of Mus musculus with 11 samples.

Results

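The genes described here are 56 genes of cell division: 23 that act at the start of S phase or in DNA synthesis, 28 that act in mitosis, and 5 regulators of the decision to leave G1. They were listed by name and found by single gene symbol in the array annotation. Of these, 54 had a probe set that carried their symbol alone, 22 of the S-phase genes, 27 of the mitotic genes and all 5 G1 regulators, among 18194 genes named on the array. Chaf1a and Ccnb1 had none, so no level of theirs is given here, and they enter only the promoter counts. Each gene is given by the probe set with the highest mean over all arrays, and 133 probe sets carried the symbols of the 54 genes.

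RNA was measured on 11 Affymetrix arrays in mandibular arches of ICR mice, the embryonic swellings from which the lower jaw and much of the tongue form. The distal tips, where the lateral lingual swellings meet, were taken as medial tissue, and what was left of each arch as lateral tissue. At embryonic day 9.7 (E9.7) each tissue had 1 array, and at E10.5 each had 3. Medial tissue alone was followed further, with 2 arrays for E11.5 and a single one for E14.5, for which the labels name the tongue (its medial or anterior portion), so that stage and dissection cannot be told apart there. All embryos were untreated and of 1 stock, and each time point drew on 40 pooled embryos, so p-values measure only the spread between arrays, which may be technical. In whole tissue, fewer dividing cells and less RNA per cell cannot be told apart.

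A dividing cell licenses its replication origins in G1 by loading the Mcm helicase, fires them in S phase, and condenses, attaches and separates its chromosomes in mitosis. Cyclin D with its kinases opens the way out of G1 by phosphorylating Rb proteins, which frees E2F factors to turn on S-phase genes, while inhibitors such as p21 and p27 hold the kinases back. Many mitotic genes are turned on later through CHR and CCAAT promoter elements, bound by the DREAM complex in resting cells and by B-Myb, FoxM1 and NF-Y in cycling ones.

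Promoter sequences were taken from RefSeq (GRCm38.p6) for the 45 of the 56 genes that had an entry, as 49 windows of 300 bases, 250 before and 50 after the annotated start, among 32851 windows in all. The letters of 3 elements were searched on both strands, and overlapping matches were counted separately: an E2F site (TTTCCCGC, TTTCGCGC, TTTGCCGC or TTTGGCGC), a CHR (TTTGAA or TTCGAA) and a CCAAT box (CCAAT). The E2F letters were in 8 of 21 windows of S-phase genes (38.1%) and in 3 of 23 of mitotic genes (Cdk1, Ncapd2 and Ncapg), against 2.26% of all windows. The CHR letters were in 18 of 23 windows of mitotic genes (78.3%) and in 3 of 21 of S-phase genes (14.3%), against 19.2% of all windows. CCAAT was in 21 of the 23 mitotic windows (91.3%) and in 15 of the 21 S-phase windows (71.4%), against 37.4% of all, and 14 mitotic windows (60.9%) held at least 2 such boxes, against 11.7%. The 5 windows of G1 regulators came from fewer than 5 genes, so that not every G1 regulator was searched. These windows held neither the E2F nor the CHR letters. A match describes letters in this window and not a site that a factor was shown to bind.

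The sequences that follow show these letters in the 3 S-phase and the 3 mitotic genes with the largest E14.5 difference among those that hold them. Each is printed on the strand of the gene, 5′ to 3′, with the E2F letters of Mcm5, Mcm7 and Cdc6 and the CHR letters of Cenpf, Aurka and Bub1b, read on either strand, in capitals. The first run of each gene is the 200 bases before the start, and a further run of 30 bases is given where a match lay after it.
Mcm5 before the start: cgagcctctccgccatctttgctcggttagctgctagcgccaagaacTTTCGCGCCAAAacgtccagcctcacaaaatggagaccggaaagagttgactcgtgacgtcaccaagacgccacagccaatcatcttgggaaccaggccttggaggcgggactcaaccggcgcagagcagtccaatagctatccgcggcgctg
Mcm7 before the start: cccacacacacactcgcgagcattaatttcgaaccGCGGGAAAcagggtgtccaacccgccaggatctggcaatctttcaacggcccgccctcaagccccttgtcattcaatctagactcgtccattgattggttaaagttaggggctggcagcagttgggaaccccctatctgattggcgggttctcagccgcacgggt
Mcm7 after the start: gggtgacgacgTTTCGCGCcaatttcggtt
Cdc6 before the start: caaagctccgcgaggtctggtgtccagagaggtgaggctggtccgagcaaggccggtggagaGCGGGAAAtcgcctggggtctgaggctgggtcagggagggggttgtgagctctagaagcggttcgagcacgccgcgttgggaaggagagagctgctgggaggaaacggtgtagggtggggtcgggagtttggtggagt
Cenpf before the start: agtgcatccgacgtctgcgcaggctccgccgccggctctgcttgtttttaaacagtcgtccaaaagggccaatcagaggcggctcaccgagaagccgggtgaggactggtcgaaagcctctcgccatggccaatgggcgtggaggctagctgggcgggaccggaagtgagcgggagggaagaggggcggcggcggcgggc
Cenpf after the start: agTTTGAAtcgctcgtgctggtcggggagg
Aurka before the start: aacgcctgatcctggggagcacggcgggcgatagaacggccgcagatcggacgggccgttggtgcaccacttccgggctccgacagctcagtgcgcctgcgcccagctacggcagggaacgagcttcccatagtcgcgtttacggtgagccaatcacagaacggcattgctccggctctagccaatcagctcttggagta
Aurka after the start: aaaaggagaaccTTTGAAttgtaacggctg
Bub1b before the start: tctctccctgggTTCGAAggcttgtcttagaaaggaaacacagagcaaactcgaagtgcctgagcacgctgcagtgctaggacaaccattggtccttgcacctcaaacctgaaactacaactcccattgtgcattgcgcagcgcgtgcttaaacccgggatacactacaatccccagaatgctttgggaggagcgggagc
Bub1b after the start: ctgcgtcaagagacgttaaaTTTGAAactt

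In Mcm5 (chr8:75109309-75109508, plus strand) 2 E2F matches overlapped, and they began 153 and 149 bases before the start. In Mcm7 (chr5:138171884-138172083 and chr5:138171849-138171878, minus strand) they began 165 bases before and 16 bases after it. In Cdc6 (chr11:98907951-98908150, plus strand) the match began 138 bases before the start. The CHR letters of Cenpf (chr1:189688087-189688286 and chr1:189688057-189688086, minus strand) and of Aurka (chr2:172370571-172370770 and chr2:172370521-172370550, minus strand) began 2 and 32 bases after the annotated start. Bub1b (chr2:118598011-118598210 and chr2:118598231-118598260, plus strand) held them 188 bases before and 40 bases after it.

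All values that follow are log2 signals after quantile normalization over the 11 arrays. As deposited, the first replicate of each of medial E10.5 and medial E11.5 had a low median (2.37 and 2.47), against 5.20 to 5.73 on the other 9 arrays. The E14.5 array stood apart in its control probe sets, with a median control signal of 6.32 against 7.65 to 8.35 elsewhere. Its actin signal was 1.22 higher at the 3′ than at the 5′ probe set, against 0.26 to 0.49 elsewhere. For Gapdh the same difference was smaller, 0.15 at E14.5 against -0.15 to -0.03 elsewhere. The number of arrays limits the precision of every value. All 54 genes passed the filter on low signal (at least 2 of 8 arrays of the replicated groups at or above 4.86). The S-phase gene Tyms was near that level, at 5.21 to 6.11 up to E11.5, and below it at E14.5 (4.68). It is still counted in what follows.

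From E9.7 to E10.5 the S-phase and mitotic genes stayed in a narrow band in both pieces, at E11.5 most were slightly lower in medial tissue, and at E14.5 nearly all were at their lowest. Over the 10 arrays up to E11.5, the range of a gene between its lowest and highest array had a median of 0.52 for S-phase genes and of 0.51 for mitotic genes. The widest ranges were 1.05 (Cdc6) and 1.07 (Nek2). The E14.5 array was the lowest of the 11 for 19 of 22 S-phase genes, for 26 of 27 mitotic genes and for none of the 5 G1 regulators, whereas it was the lowest for 23.6% of the 12566 genes that passed the filter there. The exceptions were the E cyclins Ccne1 and Ccne2, which activate Cdk2 at the entry to S phase, Uhrf1, and Nusap1, a spindle protein. Uhrf1 helps to copy DNA methylation. On its other probe set, Uhrf1 was lowest at E14.5, at 7.36 against 8.87 to 9.59 on the earlier arrays. With array medians aligned, the number was 33 in place of 45 of the 54 genes, against 9.37% of all genes. Of the G1 regulators, 4 had their highest value at E14.5, as did 33.7% of all genes. Some other probe sets of Ccnd2 and Ccnd3 were lower at E14.5 than at E11.5.

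**Figure D1:**
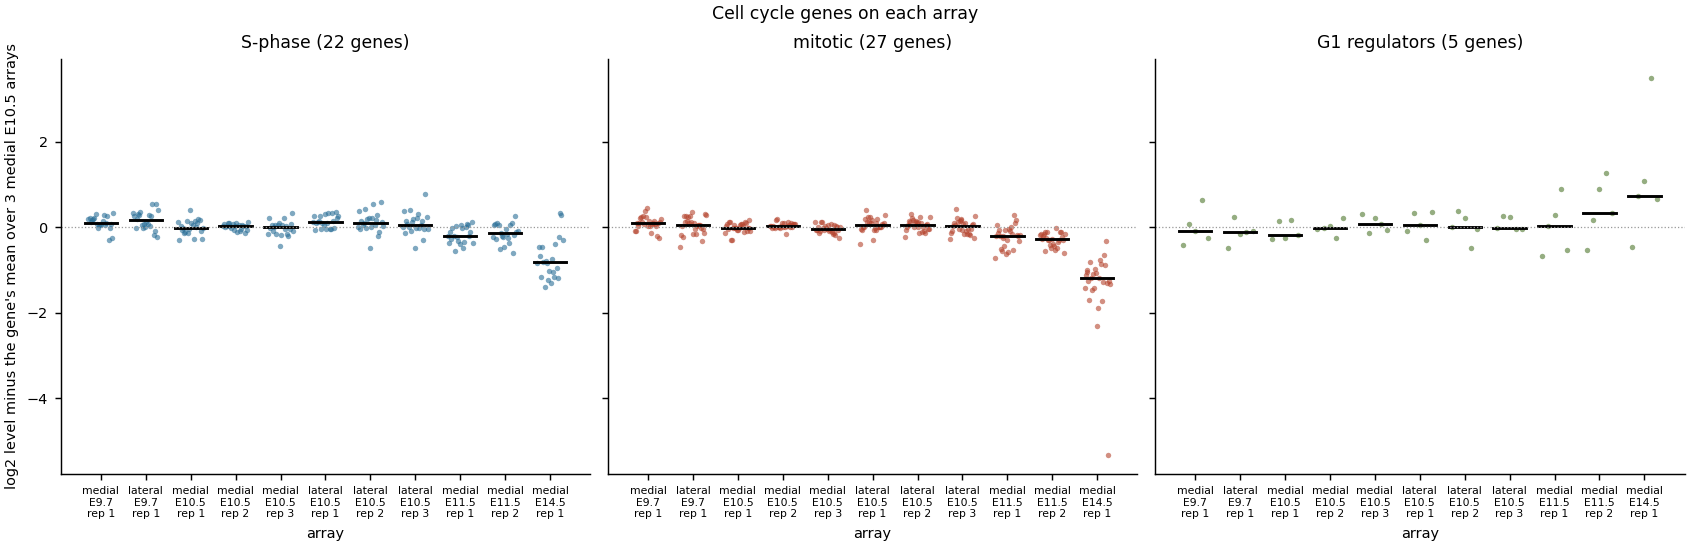
Level of each S-phase gene (22), mitotic gene (27) and G1 regulator (5) on each of the 11 arrays, as the log2 level minus the mean of that gene over the 3 medial E10.5 arrays; points are genes and black lines are medians. S-phase and mitotic genes lie close to 0 up to E10.5, mostly below it on both E11.5 arrays and lowest at E14.5, where the single mitotic gene far below the others is Smc4.

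The first comparison asked how medial differed from lateral tissue at E10.5, with 3 arrays a side. None of the 54 genes was called (limma, Benjamini-Hochberg adjusted p under 0.05), whereas 4.63% of the 11968 genes tested were. At an unadjusted p under 0.05 there were 6 genes (16.1% of all genes passed it, 7.69% lower and 8.41% higher), all 6 lower in medial tissue: Ccne1, Mcm10, Cdc6, Ccnd2, Aurkb and Ncapd2. Ccne1 was at 9.20, 9.32 and 9.37 on the medial and at 9.65, 9.90 and 10.08 on the lateral arrays. Its arrays did not overlap, and the difference of -0.58 ± 0.15 (SE) had the smallest adjusted p of the 54 (limma, 0.0667). Without the first medial E11.5 array, which enters this test only through the shared estimate of the spread, it was 0.0495. On the other probe set of Ccne1 the difference was -0.27. Its arrays overlapped there, at 8.47, 8.26 and 7.75 in medial and at 8.64, 8.32 and 8.34 in lateral tissue. Mcm10, a factor that loads onto the helicase when origins fire, was at 8.50, 8.63 and 8.66 against 8.86, 9.02 and 9.0034. It too lay lower on every medial array, with a difference of -0.36 ± 0.10 (SE) and an adjusted p of 0.103 (limma).

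Of the 54 genes, 16 had all 3 medial arrays below all 3 lateral arrays, against 12.9% of all genes, and 2 genes (Mcm4 and Mki67) had them all above, against 12.1%. The 16 were 8 S-phase genes, 7 mitotic genes and Ccnd2. The median difference was -0.09 over S-phase genes, -0.03 over mitotic genes and -0.10 over G1 regulators, beside -0.01 over all genes tested. With array medians aligned in place of quantile normalization, the S-phase median was 0.11 and the mitotic median 0.17 where the median gene was at 0.11, and 1 gene in place of 16 had its arrays apart downward (4.57% of all genes). As deposited, the medians were -1.02 and -0.96 where the median gene was at -1.03. Mki67, the gene of the Ki-67 proliferation antigen that coats mitotic chromosomes, had the highest difference of the mitotic list and was at 11.02, 11.18 and 11.28 in medial and 10.77, 10.93 and 10.89 in lateral tissue. The difference of 0.30 ± 0.15 (SE) did not pass the test. Markers of other cell types differed between the same arrays: 6 of 10 epithelial, 3 of 8 endothelial, 3 of 7 connective tissue and 2 of 15 differentiated muscle genes (Tnni1 and Des) and 1 of 4 neuronal or glial genes (Isl2) were higher in medial tissue (limma). Lower in medial tissue were 2 of 4 muscle precursor genes (Msc, -1.10, and Tcf21, -0.79), the tendon gene Scx of the connective tissue list (-0.82) and the glial gene Fabp7 (-2.06), and no red cell or macrophage gene was called. The part of these markers in the values above was not tested.

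At E9.7, with 1 medial and 1 lateral array and so no test, no gene of the 54 differed by 2-fold, against 1.76% of 11252 genes. Ccne1 was again lower in medial tissue (-0.46), and Mki67 was 0.35 higher. The widest difference was that of Cdkn1a, the gene of the Cdk inhibitor p21, which read 7.27 in medial and 6.54 in lateral tissue. A test of whether the medial to lateral difference changed between E9.7 and E10.5 (limma interaction) called 0 of the 54 genes and 0 of the 11968 genes tested. At an unadjusted p under 0.05 there were 0 of the 54, against 1.94% of all genes, so the test says nothing particular about these genes.

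From E9.7 to E10.5 no gene of the 54 passed 2-fold in medial tissue, against 0.977% of 11972 genes, or in lateral tissue, against 1.34% of 11805 genes. In medial tissue 18 of 22 S-phase and 22 of 27 mitotic genes had a lower mean at E10.5, against 48.7% of all genes. Their medians were -0.11 and -0.10, beside 0.008 over all genes. In lateral tissue 12 of 22 and 16 of 27 were lower, against 45.7% of all genes. The medians there were -0.05 and -0.02, beside 0.03 over all genes. The 4 mitotic kinases Aurka, Aurkb, Plk1 and Nek2 drive centrosome maturation, spindle assembly and chromosome separation. In medial tissue all were lower at E10.5 than at E9.7 (-0.45 to -0.21), and in lateral tissue they differed by -0.21 to 0.11. All 12 genes of origin licensing and the helicase were also lower in medial tissue at E10.5. So were 4 spindle checkpoint genes, 4 centromere and kinetochore genes, Cdk1, Ccna2, Ccnb2, Chaf1b and Uhrf1. With array medians aligned in place of quantile normalization, the S-phase and mitotic medians were -0.45 and -0.43 in medial and -0.50 and -0.53 in lateral tissue, where the median gene stood at -0.25 and -0.33. With 1 array per tissue at E9.7, these differences have no replicate check. Comparisons of a piece with itself and with the other piece share arrays, so their values are not independent.

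**Figure D2:**
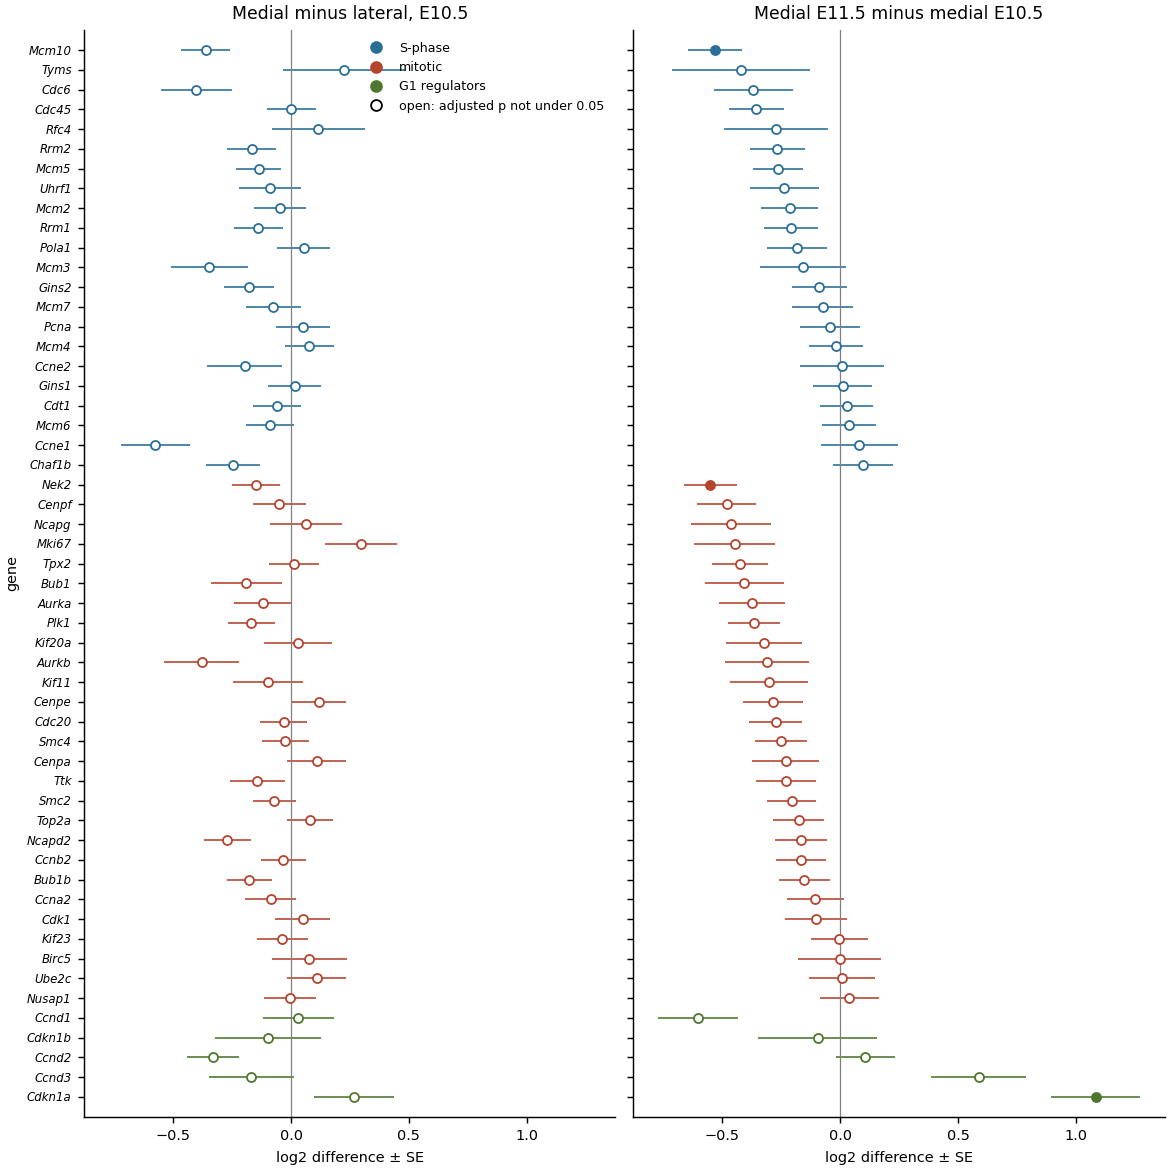
Log2 difference and its standard error for each of the 54 genes between medial and lateral tissue at E10.5 (left, 3 against 3 arrays) and between medial E11.5 and medial E10.5 tissue (right, 2 against 3 arrays); filled points passed an adjusted p of 0.05. No gene is filled on the left, and Mcm10, Nek2 and Cdkn1a are filled on the right, where most mitotic genes lie below 0.

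Between E10.5 and E11.5 medial tissue, 3 of the 54 genes (5.56%) were called, against 6.92% of the 11968 genes tested. Mcm10 and Nek2 fell (2.6% of all genes did) and Cdkn1a rose (4.32% did). At an unadjusted p under 0.05 there were 16 genes, 14 lower and 2 higher, against 18% of all genes (8.32% lower and 9.68% higher). With groups of arrays read from control probe sets as a fixed term, 15 were called, 13 lower and 2 higher, against 18.2% of all genes. Both tested comparisons use the medial E10.5 arrays, so a chance deviation of those arrays would enter both.

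Mcm10 read 8.91 on the medial and 8.95 on the lateral E9.7 array, 8.50, 8.63 and 8.66 on the medial E10.5 arrays, 8.86, 9.02 and 9.0034 on the lateral E10.5 arrays, 8.05 and 8.08 on the medial E11.5 arrays and 7.20 at E14.5. The E11.5 arrays were below every E10.5 array of either piece. The fall was 0.53 ± 0.12 (SE) on the log2 scale with an adjusted p of 0.0258 (limma), and it was 0.55 and 0.45 within the pairs of arrays that share a pattern of control probe signals. Nek2 read 9.49 on the medial and 9.40 on the lateral E9.7 array, 8.99, 9.13 and 9.01 on the medial E10.5 arrays, 9.22, 9.14 and 9.20 on the lateral E10.5 arrays, 8.42 and 8.56 on the medial E11.5 arrays and 7.97 at E14.5. Nek2, a centrosome kinase that separates the spindle poles, fell by 0.55 ± 0.11 (SE; limma, adjusted p = 0.0202), with both E11.5 arrays below all 8 earlier ones. Both calls were lost without the second medial E10.5 array or the first medial E11.5 array (adjusted p of 0.0902 and 0.0995 for Mcm10, 0.0795 and 0.101 for Nek2, limma), and that of Mcm10 was also lost without the third medial E10.5 array (0.0733) or the second medial E11.5 array (0.0828). Both were also lost without the second or the third lateral E10.5 array, which enter only through the shared estimate of the spread (0.0614 and 0.0597 for Mcm10, 0.0512 and 0.0505 for Nek2, limma). Without both arrays of low signal the adjusted p was 0.0572 for Mcm10 and 0.0702 for Nek2 (limma). With the mean of all probe sets of a gene in place of the brightest, the differences were -0.27 for Mcm10 and -0.21 for Nek2 and neither was called.

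Most other mitotic genes had lower means at E11.5 without passing the test. Of 27 mitotic genes, 25 had a lower mean at E11.5, and of 22 S-phase genes 16 did, against 49.5% of all genes tested. The mitotic and S-phase medians were -0.25 and -0.17, beside a median of 0.003 over all genes tested. With array medians aligned they were -0.32 and -0.26 where the median gene was at -0.06. In 26 of the 54 genes both E11.5 arrays lay below all 3 medial E10.5 arrays, against 13.6% of all genes, namely 17 mitotic genes, 8 S-phase genes and Ccnd1. That number was 8 with array medians aligned, against 8.98% of all genes. Only Ccnd3 and Cdkn1a had both arrays above, against 14.8%. Within the pairs of arrays that share a control pattern, the mitotic median was -0.29 and -0.18 and the S-phase median -0.12 in both.

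By role, the median E11.5 difference was -0.37 over the 4 mitotic kinases, -0.30 over 5 spindle motors and binders, -0.26 over 4 centromere and kinetochore genes, -0.25 over 4 spindle checkpoint genes, -0.23 over 6 genes of chromosome structure and -0.11 over Cdk1 and the cyclins Ccna2 and Ccnb2 that it pairs with. Among S-phase genes it was -0.24 over 6 genes of DNA synthesis, -0.12 over 12 genes of origin licensing and the helicase, and 0.04 over the 2 E cyclins. After Nek2, the lowest mitotic adjusted p-values were those of Cenpf, a kinetochore protein (-0.48 ± 0.13 SE, limma adjusted p = 0.0564), and Tpx2, an activator of Aurora A on the spindle (-0.43 ± 0.12 SE, limma adjusted p = 0.0736). Neither passed the test. Among mitotic genes, the smallest differences were those of Birc5, Kif23, Ube2c and Nusap1, which were within 0.04 of 0.

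Pcna was at 12.93 and 12.91 in medial and lateral tissue at E9.7, at 13.01, 12.84 and 12.70 in medial E10.5, at 12.81, 12.83 and 12.75 in lateral E10.5, at 12.89 and 12.73 in medial E11.5, and at 12.05 on the E14.5 array. Pcna, the sliding clamp of the DNA polymerases, stayed within the range of the medial E10.5 arrays in all groups up to E11.5, and its E14.5 value was below all other arrays by more than their whole range. Mki67 was at 11.06 and 10.71 in medial and lateral tissue at E9.7, at 11.02, 11.18 and 11.28 in medial E10.5, at 10.77, 10.93 and 10.89 in lateral E10.5, at 10.44 and 10.99 in medial E11.5, and at 9.75 on the E14.5 array. The E11.5 arrays of Mki67 lay apart from each other, and the difference of -0.45 ± 0.17 (SE) did not pass the test. Cdk1 was at 10.88 and 10.80 in medial and lateral tissue at E9.7, at 10.85, 10.77 and 10.71 in medial E10.5, at 10.71, 10.80 and 10.68 in lateral E10.5, at 10.84 and 10.51 in medial E11.5, and at 9.78 on the E14.5 array. Cdk1, the kinase that starts mitosis, overlapped between E10.5 and E11.5 and was lowest at E14.5.

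Cdkn1a was at 7.27 and 6.54 in medial and lateral tissue at E9.7, at 6.81, 6.39 and 6.72 in medial E10.5, at 6.35, 6.16 and 6.61 in lateral E10.5, at 7.54 and 7.91 in medial E11.5, and at 10.13 on the E14.5 array. Cdkn1a was higher on both E11.5 arrays than on every earlier array and higher again at E14.5, where it was the highest of the 11. The E11.5 rise was 1.08 ± 0.19 (SE), or 2.12-fold, with an adjusted p of 0.00912 (limma). It was 1.52 and 0.72 within the pairs of arrays that share a control pattern, and the call was lost without the second E11.5 array (0.90, limma adjusted p = 0.0760). The other probe set of Cdkn1a gave 1.11 at E11.5.

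In the order medial then lateral E9.7, 3 medial E10.5, 3 lateral E10.5, 2 medial E11.5 and E14.5, the log2 levels of Ccnd1 were 10.02, 9.96, 10.15, 10.40, 10.75, 10.35, 10.44, 10.42, 9.76, 9.90 and 9.97. Ccnd1, cyclin D1, was lower on both E11.5 arrays than on all E10.5 arrays, and its difference of -0.61 ± 0.17 (SE) did not pass the test (limma adjusted p = 0.0743). It passed with the mean of its probe sets (-0.66, limma adjusted p = 0.00362) and without the first medial E10.5 array (-0.75, limma adjusted p = 0.0214). In the order medial then lateral E9.7, 3 medial E10.5, 3 lateral E10.5, 2 medial E11.5 and E14.5, the log2 levels of Ccnd2 were 11.23, 11.40, 11.30, 11.13, 11.03, 11.4975, 11.53, 11.43, 11.19, 11.33 and 11.89. On the probe set shown, Ccnd2, cyclin D2, was lower on every medial than on every lateral E10.5 array (-0.33, limma adjusted p = 0.173). It was highest at E14.5 there, with a difference from E11.5 of 0.63, against -0.52 on its next brightest probe set. In the order medial then lateral E9.7, 3 medial E10.5, 3 lateral E10.5, 2 medial E11.5 and E14.5, the log2 levels of Cdkn1b were 7.27, 7.43, 7.36, 7.75, 7.47, 7.89, 7.49, 7.49, 6.99, 7.86 and 8.18. For Cdkn1b, the gene of p27, the E10.5 and E11.5 arrays overlapped, with one E11.5 array the lowest of all, and the E14.5 value was the highest.

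**Figure D3:**
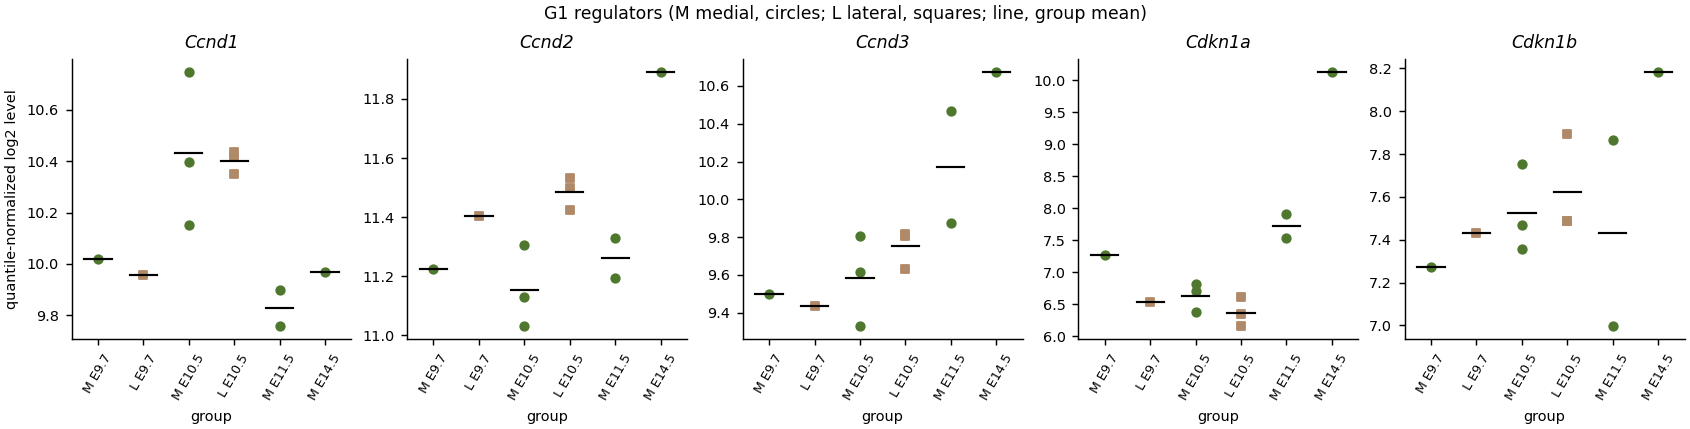
Quantile-normalized log2 level of the 3 D cyclins (Ccnd1, Ccnd2, Ccnd3) and of the Cdk inhibitors Cdkn1a (p21) and Cdkn1b (p27) in the 6 groups; points are arrays, lines are group means, and each panel has its own vertical scale, which does not start at 0. Cdkn1a lies between 6.16 and 7.91 up to E11.5 and at 10.13 at E14.5.

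The last comparison set the single E14.5 array against the 2 medial E11.5 arrays, which the previous comparison also used, without a test. Every one of the 27 mitotic genes was lower at E14.5 than on both E11.5 arrays, with a median difference of -0.90, and so were 19 S-phase genes, against 34.9% of all genes. Of the 22 S-phase genes 20 had a lower value, against 44.5% of all genes, with a median of -0.66. All 5 G1 regulators had a higher one, with a median of 0.63, though the D cyclins had other probe sets that were lower. With the E cyclins, 7 genes were above both E11.5 arrays, against 46.2% of all genes. The median over the 12566 genes compared was 0.08. Relative to the median gene, the medians were -0.74 and -0.98 for S-phase and mitotic genes after quantile normalization and -0.69 and -0.95 with array medians aligned, where the median gene itself was 0.39 higher. As deposited, where the median gene was 1.75 higher, the list medians were 1.06 and 0.80, so that their sign turned while they stayed below the median gene. Under all 3 scalings 20 S-phase and 27 mitotic genes were below the median gene. Control probe signals and the 3′ to 5′ differences of actin and, by less, of Gapdh on the E14.5 array moved with these values. Their part in these values was not tested.

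Past 2-fold from both E11.5 arrays were 12 of the 54 genes (22.2%), against 14.6% of all genes. Of these, 11 were lower, against 3.63% of all genes, and 1 was higher, against 11% of all genes. The lower ones were Gins1 and Chaf1b of the S-phase list and Smc4, Cenpe, Kif20a, Cenpf, Aurka, Bub1b, Ccna2, Ncapd2 and Smc2 of the mitotic list, and the higher one was Cdkn1a. With array medians aligned the number was 4, against 18.7% of all genes. It was 15 without the first E11.5 array and 16 without the second, against 17.8% and 21.3% of all genes. The lowest and highest differences were -1.31 (Gins1) and 0.27 (Ccne2) among S-phase genes, -5.07 (Smc4) and -0.35 (Nusap1) among mitotic genes and 0.14 (Ccnd1) and 2.41 (Cdkn1a, 5.32-fold) among G1 regulators.

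Gins1 read 9.54 on the medial and 9.60 on the lateral E9.7 array, 9.55, 9.55 and 9.28 on the medial E10.5 arrays, 9.43, 9.46 and 9.45 on the lateral E10.5 arrays, 9.52 and 9.43 on the medial E11.5 arrays and 8.17 at E14.5. Gins1, a subunit of the GINS complex of the active helicase, held within 0.31 over the earlier 10 arrays and differed by -1.31 at E14.5 from E11.5. Chaf1b read 8.94 on the medial and 9.20 on the lateral E9.7 array, 8.76, 8.72 and 8.50 on the medial E10.5 arrays, 8.99, 8.94 and 8.80 on the lateral E10.5 arrays, 8.74 and 8.77 on the medial E11.5 arrays and 7.72 at E14.5. Chaf1b, a subunit of the factor that places histones on new DNA, differed by -1.04, with every earlier array above the E14.5 value. Of the other S-phase genes, the 6 replicative helicase subunits Mcm2 to Mcm7 had differences of -0.90 (Mcm5) to -0.29 (Mcm3). Mcm4, Mcm5 and Mcm6 each had another probe set that was not lower (0.13, 0.0007 and 0.47). Rrm2, a subunit of the enzyme that makes deoxynucleotides, had a difference of -0.97.

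Smc4 was at 10.55 and 10.65 in medial and lateral tissue at E9.7, at 10.77, 10.87 and 10.74 in medial E10.5, at 10.85, 10.76 and 10.86 in lateral E10.5, at 10.58 and 10.51 in medial E11.5, and at 5.48 on the E14.5 array. Smc4, a core subunit of condensin, the ring that compacts mitotic chromosomes, was 33.5-fold lower at E14.5 on this probe set, where the earlier 10 arrays spanned 0.37. Cenpe was at 9.33 and 9.14 in medial and lateral tissue at E9.7, at 9.21, 9.30 and 9.34 in medial E10.5, at 8.99, 9.29 and 9.22 in lateral E10.5, at 8.98 and 9.02 in medial E11.5, and at 6.97 on the E14.5 array. Cenpe, the kinesin of the kinetochore, differed by -2.03, where the earlier arrays spanned 0.36. Cenpf was at 9.65 and 9.60 in medial and lateral tissue at E9.7, at 9.48, 9.60 and 9.42 in medial E10.5, at 9.44, 9.63 and 9.58 in lateral E10.5, at 8.92 and 9.12 in medial E11.5, and at 7.61 on the E14.5 array. Cenpf was already lower on both E11.5 arrays than on every earlier array, and differed by a further -1.41 at E14.5.

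Kif20a read 9.84 on the medial and 9.79 on the lateral E9.7 array, 9.77, 9.86 and 9.60 on the medial E10.5 arrays, 9.93, 9.63 and 9.58 on the lateral E10.5 arrays, 9.59 and 9.25 on the medial E11.5 arrays and 8.01 at E14.5. Kif20a, a kinesin needed for cytokinesis, spanned 0.68 over the earlier 10 arrays, with the second E11.5 array the lowest of them, and differed by -1.41 at E14.5. Aurka was at 10.07 and 9.98 in medial and lateral tissue at E9.7, at 9.98, 9.83 and 9.76 in medial E10.5, at 10.04, 9.97 and 9.92 in lateral E10.5, at 9.66 and 9.31 in medial E11.5, and at 8.17 on the E14.5 array. Aurka, the Aurora A kinase of the centrosome, was lowest at E14.5, with a difference of -1.32, and its 2 E11.5 arrays were the lowest of the earlier 10. In the order medial then lateral E9.7, 3 medial E10.5, 3 lateral E10.5, 2 medial E11.5 and E14.5, the log2 levels of Bub1b were 10.15, 10.12, 9.87, 9.90, 9.88, 10.12, 10.05, 10.01, 9.68, 9.78 and 8.43. Bub1b, a spindle checkpoint protein, differed by -1.30 at E14.5, where the earlier arrays had spanned 0.47. The other mitotic genes past 2-fold were Ccna2 (-1.16), the A cyclin of S phase and early mitosis, Ncapd2 (-1.15) and Smc2 (-1.09). The last 2 are condensin subunits too. The other probe set of Ccna2 gave -0.32 and that of Ncapd2 -0.47, whereas those of Smc2 were further below 0.

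Most other probe sets of the S-phase and mitotic genes had the same direction at E14.5, with sizes that differed. A probe set is called bright where its mean over the 11 arrays reached the filter level. Of 46 bright S-phase probe sets 40 were lower at E14.5, and of 53 bright mitotic probe sets 52 were, 25 of them by 2-fold, while 7 of 15 probe sets of G1 regulators were. Of 18 mitotic genes with at least 2 bright probe sets, 17 had all of them lower (94.4%), and of 16 such S-phase genes 12 did (75%), against 31.1% of 5182 genes. The sizes disagreed by 2-fold or more in 14 of 38 genes (36.8%), against 41.3% of all genes, whereas the E11.5 to E10.5 differences did so in none of the 38 (0.83% of all genes).

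The difference of Smc4 was -5.07, -3.63 and -2.09 on its 3 probe sets. That of Smc2 was -1.09 on the brightest probe set and -4.50 on another, that of Ncapg, a further condensin subunit, -0.80 and -3.77, and that of Kif11, the kinesin that pushes the spindle poles apart, -0.46, -0.95 and -3.34. Among S-phase genes, Mcm3 gave -0.29 on its brightest probe set and -3.79 on another, and Rrm1 -0.63 and -2.61. All of these were below 0. Another bright probe set was above 0 in Mcm6 (0.47), Mcm4 (0.13), Mcm5 (0.0007) and Aurkb (0.02). So were all those of the E cyclins. The D cyclins did not keep their direction either. The probe sets of Ccnd1 ran from -2.11 to 0.14 and those of Ccnd3 from -1.13 to 0.50. For Ccnd2 the brightest probe set gave 0.63 and others 1.39 and 2.08, whereas the rest gave -0.52, -0.47, -0.51 and -0.38. Cdkn1a was higher on both of its probe sets, by 2.41 and 1.83.

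**Figure D4:**
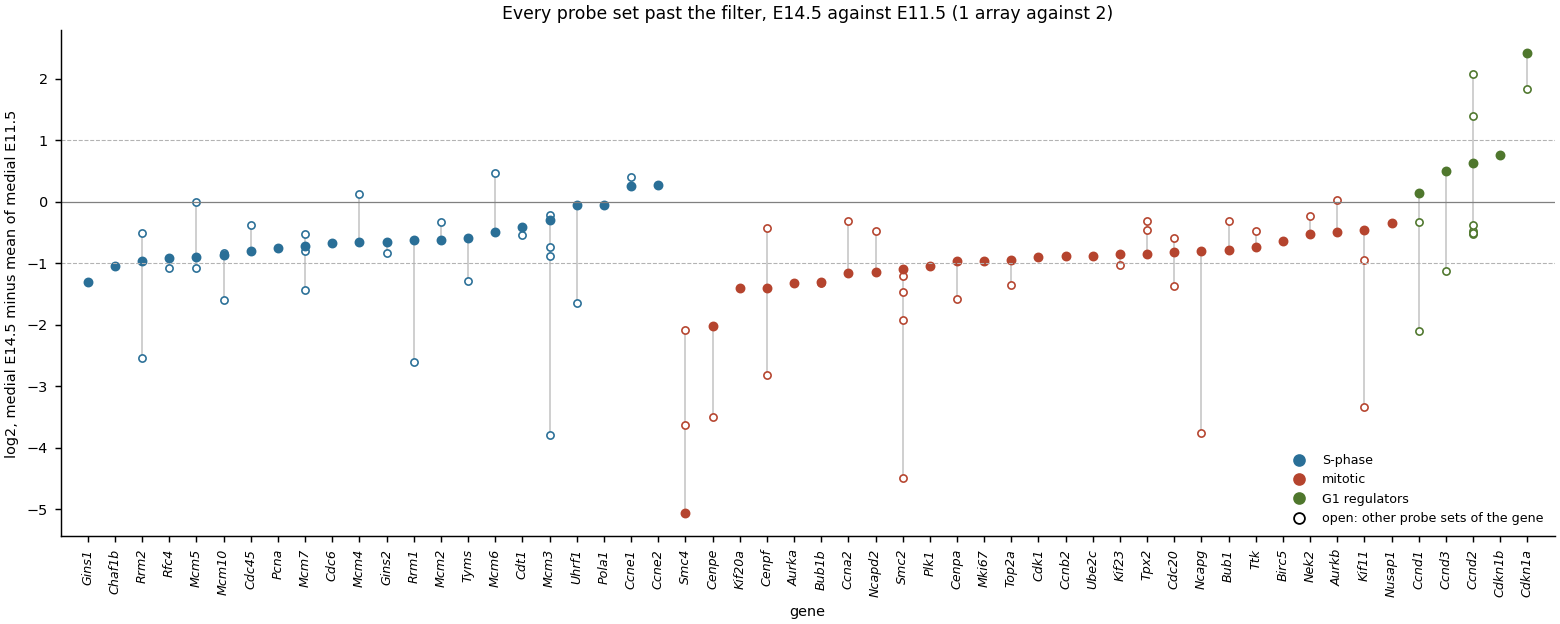
Log2 difference between the medial E14.5 array and the mean of the 2 medial E11.5 arrays for each bright probe set of the 54 genes; filled points are the probe sets used elsewhere, open points the others, grey lines join probe sets of a gene and dashed lines mark 2-fold. Nearly all S-phase and mitotic points lie below 0, and the probe sets of Smc4, Smc2, Ncapg, Kif11 and Mcm3 are spread over more than 2 log2 units.

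The regulators upstream of these genes were read from lists of pathway genes, each gene by its brightest probe set. Other probe sets of these regulators are not given here. At E14.5 the probe sets of a gene disagreed by 2-fold or more in 41.3% of all genes with at least 2 bright ones. Of 13 E2F and Rb family genes, 1 rose at E11.5, E2f2, an activator E2F (0.57 ± 0.11 SE, limma adjusted p = 0.0171), and none fell. At E14.5, Rb1 and Rbl2, which restrain E2F, were higher by 2.88 and 2.14, and E2f2 by 1.26, while the list median was -0.27 (0.12 with array medians aligned). Of the 10 DREAM and mitotic activator genes none was called in either tested comparison. At E14.5, 8 of them were lower, against 44.5% of all genes, and 2 were higher, by up to 0.60. The list median was -0.31 after quantile normalization, and 1 gene passed 2-fold, downward. Among the lower ones were Foxm1 (-1.10) and the NF-Y subunit Nfyb (-1.42). Of the other Cdk inhibitors, 4 of 6 were tested and 2 of them rose at E11.5: Cdkn1c, the gene of p57, by 1.53 ± 0.19 (SE; limma adjusted p = 0.00107) and Cdkn2c, the gene of p18, by 0.82 ± 0.19 (SE; limma adjusted p = 0.0357). Cdkn2c was a further 2.11 higher at E14.5.

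The genes of origin recognition and its control were all lower at E14.5, 9 of 9, against 44.5% of all genes, with a median of -0.70. Orc2 (-1.42) and Gmnn (-1.14), the licensing inhibitor geminin, passed 2-fold. None of the 9 was called in the tested comparisons, nor any of 13 genes of the anaphase promoting complex, 7 of cohesin and separase or 6 G1 kinase genes. Since 4.63% and 6.92% of all genes were called in those comparisons, counts of 0 in lists of this size are near the background. In the last 3 lists the E14.5 medians were -0.37, -0.44 and -0.42, and Cdc25a, a phosphatase that activates Cdk2, differed by -1.54. With array medians aligned these 3 medians were -0.02, -0.06 and -0.03 and that of origin recognition -0.31, and as deposited all 4 were above 0 (1.05 to 1.34), each below the median gene. Of 4 tested growth regulators, Mycn was lower in medial than in lateral tissue at E10.5 (-0.57 ± 0.10 SE, limma adjusted p = 0.0145) and fell at E11.5 (-0.96 ± 0.12 SE, limma adjusted p = 0.00102), as did Lin28a (-2.48 ± 0.43 SE, limma adjusted p = 0.00869). At E14.5 Hmga2 differed by -2.41 and Myc by 1.76. Among 6 measured p53 pathway genes, Gadd45g was higher in medial tissue at E10.5 (2.37 ± 0.13 SE, limma adjusted p = 3.29e-05) and fell at E11.5 (-0.66 ± 0.15 SE, limma adjusted p = 0.0317), and Ccng1 was 1.42 higher at E14.5.

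Markers of cell types moved over the same stages. Of 15 tested genes of differentiated muscle 13 rose at E11.5, and all 16 passed 2-fold upward at E14.5, with medians of 2.86 and 4.56. The log2 of their summed signal was 8.69 to 8.94 in medial E10.5 tissue, 12.29 to 12.76 at E11.5 and 16.16 at E14.5, and 5, 16 and 16 of the 16 genes had a mean at or above the filter level of 4.86. Of 4 tested muscle precursor genes 4 rose at E11.5, and their summed signal went from between 7.09 and 7.19 to between 10.43 and 10.45, and was 10.63 at E14.5. Of 10 epithelial genes 8 fell and 1 rose at E11.5, with a summed signal of 11.54 to 11.66 at E10.5 and 10.73 to 10.86 at E11.5, and 7 were past 2-fold higher at E14.5, at 13.11. Macrophage genes rose in 3 of 6 at E11.5 and 5 of 7 were past 2-fold higher at E14.5, and 4 of 5 red cell genes were past 2-fold lower there, with a summed signal of 12.49 against 14.49 to 14.68 at E11.5. Connective tissue genes rose in 3 and fell in 1 of 7 at E11.5, endothelial genes fell in 2 of 8, and no neuronal or glial gene of 4 was called. Past 2-fold higher at E14.5 were 3 of 7 connective tissue, 1 of 8 endothelial and 4 of 6 neuronal or glial genes. Only 1 gene of these lists, a neuronal or glial one, was past 2-fold lower there. The part of these marker changes in the levels of the cell cycle genes was not tested.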

How the data were processed

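The deposited values were log2 signals of 11 arrays, made by the authors with Affymetrix Expression Console 1.1, per the submitters' processing notes; the algorithm and base are not given in the sources used here, and base 2 was taken from the range (0.0887 to 14.5). Labels record column-purified RNA and 3 ug of total RNA per array.

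Of 45101 probe sets, 34958 carried 1 gene symbol, 932 several and 9211 none in the platform annotation (34754 matched by gene ID), naming 18194 genes. Values were quantile normalized, and the probe set with the highest mean stood for a gene. Genes were tested where at least 2 of the 8 replicated arrays reached 4.86, the 50th percentile, and in untested comparisons where 1 array of the groups compared did. Tests used limma 3.58.1 (R 4.3.3) on all 11 arrays, each group with a mean of its own, and genes were called at a Benjamini-Hochberg adjusted p under 0.05 over all genes. With a single array in a group, a gene counted where every array was at least 2-fold from every array of the other. Code was tested on simulated data. The list medians are differences of group means with no test.

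Members, lists and comparisons were chosen with earlier results of these data known. Values on every array are given for members called, up to 6 per list past 2-fold at E14.5, and Pcna, Mki67, Cdk1, Ccnd1, Ccnd2, Cdkn1a and Cdkn1b. Of other lists, up to 3 genes per comparison were named by adjusted p or size. Ccne1, Ccnd3 and the genes shown for disagreeing probe sets were picked after their values were seen, as were non-overlap and lowest-array counts under other settings. Alternatives were scaling, probe set choice, filter, variance model, array weights, arrays in the fit, replicate number or control probe group as a term, thresholds and left-out arrays.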

Additional observations from a re-analysis of the deposited data

How the results depend on the processing

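Between medial and lateral tissue at E10.5, the count of 0 called genes became 1 with the mean of a gene's probe sets, with its most variable probe set, with a filter at the 75th percentile, with robust variance moderation and at an adjusted p under 0.1, 2 with the control probe group as a term and 5 with array weights (limma). It stayed at 0 without any of its arrays, and was 1 without the first medial E11.5 array. Between medial E11.5 and E10.5, the count of 3 became 0 as deposited, 1 with array medians aligned or with only these groups fitted, 5 with the 75th percentile filter, 6 with robust moderation, 7 at an adjusted p under 0.1 and 15 with the control probe group as a term, and it ran from 1 to 4 without single arrays (1 without lateral E10.5 replicate 2 or 3; leaving out arrays of other groups was chosen after the data were seen). With the replicate number as a block, 1 gene was called in the first and 5 in the second comparison. Apart from the control probe group at E11.5, the share of all genes called under these settings is not given here. These counts are therefore not set against the background and say nothing particular about these genes. Same-numbered medial and lateral E10.5 arrays correlated in their deviations by 0.13, -0.29 and 0.48, and those with different numbers by -0.56 to 0.50. With 3 arrays a side, these values cannot settle whether the numbers pair those arrays. Medial E10.5 and E11.5 share only numbers 1 and 2, whose arrays correlated by 0.59 and 0.39. These arrays also share a control probe pattern, so that pairing was not settled there either. For E14.5 against E11.5, the count of 12 past 2-fold became 3 as deposited, 4 with medians aligned, 25 with the most variable probe sets and 32 at 1.5-fold, and 15 to 16 without either E11.5 array (14.6% of all genes became 19.5%, 18.7%, 27%, 28.9%, 17.8% and 21.3%); at E9.7, 1 gene passed 1.5-fold.

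The S-phase median at E11.5 (-0.17) was -0.86 as deposited, -0.26 with medians aligned, -0.11 with the mean and -0.13 with the most variable of the probe sets, -0.12 without both arrays of low signal and -0.20 to -0.14 without single arrays. At E14.5 (-0.66) it was 1.06 as deposited, -0.29 with medians aligned, -0.82 with the most variable probe sets and -0.63 to -0.62 without either E11.5 array. The mitotic median at E11.5 (-0.25) was -0.93 as deposited, -0.32 with medians aligned, -0.28 without both arrays of low signal and -0.27 to -0.20 without single arrays. At E14.5 (-0.90) it was 0.80 as deposited, -0.55 with medians aligned, -1.15 with the most variable probe sets and -0.94 without either E11.5 array. The genes with both E11.5 arrays below the E10.5 arrays numbered 26 (13.6% of all genes), or 40 without the arrays of low signal (34.2%), 8 with medians aligned (8.98%) and 20 with the mean of probe sets (15.5%); for medial below lateral at E10.5, 16 (12.9%) became 1 with medians aligned (4.57%). As deposited, the median of all genes moved with the arrays of low signal; the cause of the other changes was not tested.

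Apart from leaving out lateral arrays, of the 3 genes called at E11.5, Cdkn1a kept its direction and its call in 15 of 17 alternatives, Nek2 in 10 of 17 and Mcm10 in 7 of 17. The E9.7 and E14.5 groups have 1 array, so their differences have no replicate check.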
